A study of Mus musculus with 8 samples.

Results

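The 9 genes Sqle, Lss, Cyp51, Msmo1, Nsdhl, Hsd17b7, Ebp, Sc5d and Dhcr7 encode enzymes that turn squalene into cholesterol, and their mRNA was compared between mice that were wild-type (WT) or knocked out for Th-POK (KO), in lactating mammary glands. They were chosen as the named enzymes of this stretch of the pathway and found on the array through the accession of each probe, and all 9 of 9 were measured, among 18749 genes with a probe on the array. Th-POK is a zinc finger transcription factor encoded by Zbtb7b. Both groups were female dams of the C57/Bl6 strain at lactation day 1, 4 WT and 4 Th-POK-deficient, and the labels name no other allele and no treatment. RNA came from the whole No. 4 mammary gland, with its alveolar epithelium, fat pad, stroma and blood cells, and the sources used here name no Cre driver or tissue restriction for the knockout and give no age for these dams. Each dam had an array of its own. The arrays had 1 colour, the dye Cy3, so that probe brightness was what each array measured. Levels are given as log2 signals, the log2 of background-subtracted brightness after the 8 arrays were brought to the same distribution (quantile normalization), and a difference of 1 on this scale is 2-fold. A gene was called when its difference between the genotypes had an adjusted p under 0.05 in limma, fitted over all 14137 genes that were well above background on the 4 arrays of at least 1 genotype.

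The enzymes act in a fixed order, and the results follow it. Sqle, the squalene epoxidase, adds oxygen to squalene, and Lss, the lanosterol synthase, folds the product into lanosterol, which is the earliest sterol of the pathway. Cyp51 and then Msmo1, Nsdhl and Hsd17b7 strip methyl groups from the sterol nucleus. Ebp moves a double bond within the ring, Sc5d introduces another, which cholesterol keeps, and Dhcr7 reduces the one that Ebp had moved. Genes of cholesterol synthesis are known targets of the SREBP transcription factors, which are held in the endoplasmic reticulum by Scap and Insig proteins when sterols are plentiful and released when they are scarce. The lactating gland makes cholesterol for the membrane that wraps milk fat globules.

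The targeted gene and the milk protein genes were read before the enzymes. Zbtb7b (probe A_51_P473229) lay between 9.90 and 10.42 on the WT arrays and was well above background on 0 of 4 KO arrays, at least 81.5-fold lower than in WT glands (adjusted p = 5.71e-09 from limma). The milk protein gene Csn2 was at 17.76 ± 0.05 (SD, n = 4) in WT and 17.77 ± 0.07 (SD, n = 4) in KO glands. Wap was at 18.39 ± 0.06 (SD, n = 4) in WT and 18.47 ± 0.02 (SD, n = 4) in KO glands. Lalba was at 15.45 ± 0.36 (SD, n = 4) in WT and 15.01 ± 0.37 (SD, n = 4) in KO glands (adjusted p = 0.197 from limma). The mean log2 signal of 6 milk protein genes was 17.11 to 17.35 on the WT arrays and 17.05 to 17.39 on the KO arrays. Quantile normalization gives probes of equal rank equal values, and Csn2 read 17.695 on both WT array 1 and KO array 1. The closeness of the brightest genes was therefore partly set by the processing and is no separate check of the tissue. One slide held the 4 WT arrays and a second slide the 4 KO arrays, so genotype and slide cannot be told apart. Between 67.1% and 75.6% of spots were well above background, and 0 were saturated.

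All 9 genes had a lower mean in KO than in WT, with a median log2 fold change of -1.20, against 52.4% of all genes tested lower and a median of -0.02 over them. Of the 9, 4 were called lower (Sqle, Lss, Msmo1 and Sc5d) and 0 higher, where 8.96% of all genes tested were called lower and 7.53% higher. In 3 of them, Sqle, Lss and Msmo1, the decrease was at least 2-fold, which 2.24% of all genes combined with a call, and every KO array lay below every WT array, a separation found in 12.9% of all genes, with the opposite one in 11.1% and in 0 of the 9. The mean difference exceeded 1 on the log2 scale, called or not, in 7 of the 9 and in 3.98% of all genes. In whole glands, fewer cells of a type and less RNA per cell cannot be told apart.

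**Figure D1:**
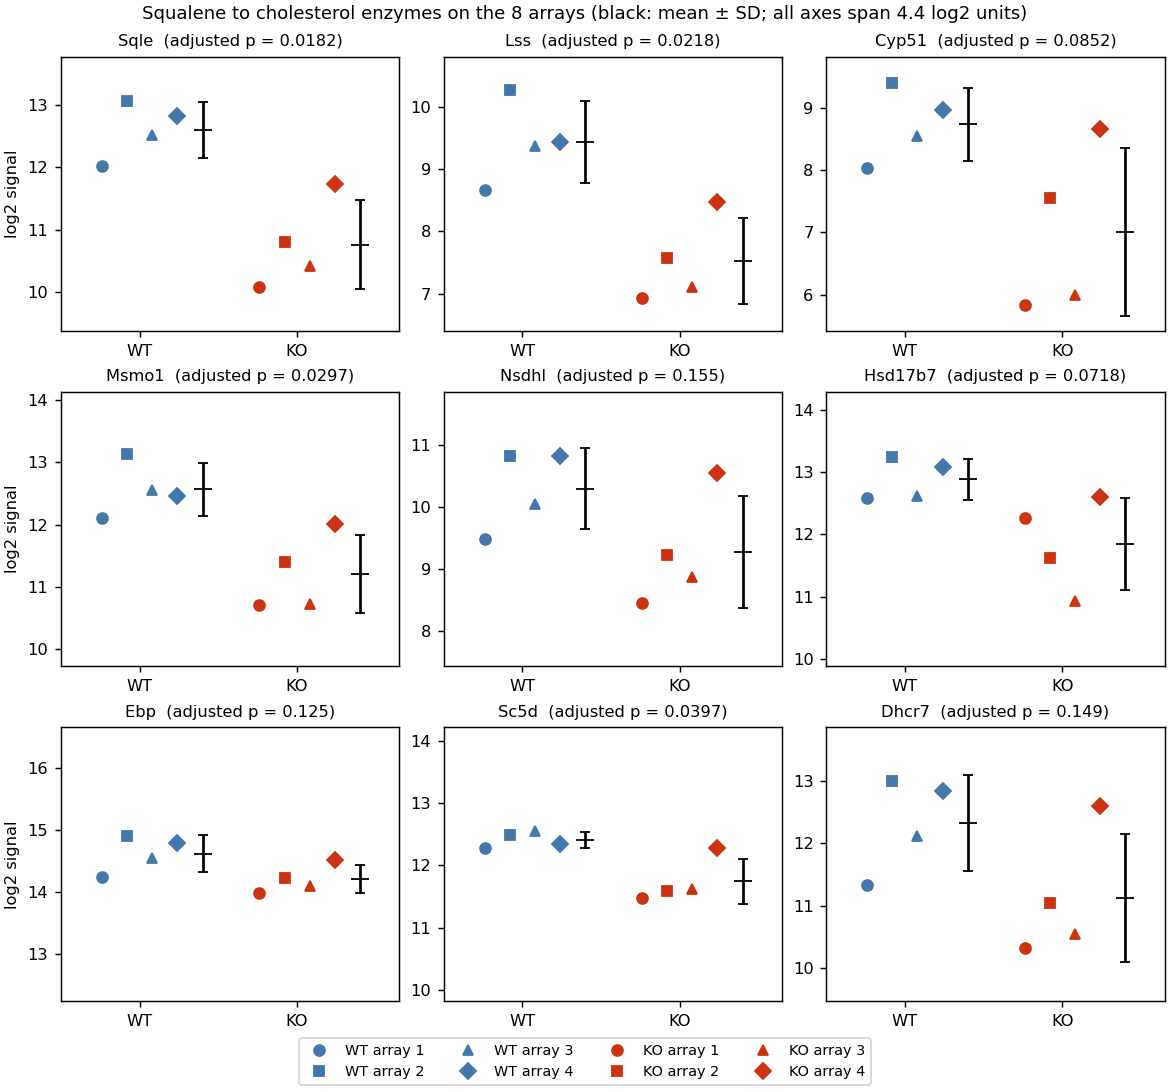
Log2 signal (y axis) of the 9 enzymes in pathway order on the 4 WT arrays (blue) and the 4 KO arrays (red), each symbol 1 dam, with the mean ± SD in black. KO array 4 (red diamond) is the highest KO array in all 9 panels, and WT array 1 (blue circle) is the lowest WT array in all 9.

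By the brightest probe of each gene, Sqle and Lss, at the entry to the sterol part of the pathway, had the largest mean decreases of the 9. This order depended on the probe and the arrays. Cyp51 had log2 fold changes of -2.11 and -1.90 by its other probes. Without KO array 4 it had -2.28, against -2.23 for Lss and -2.18 for Sqle. Sqle, often described as a rate-limiting step of the pathway, had log2 signals of 12.02, 13.06, 12.52 and 12.82 on WT arrays 1 to 4 and of 10.08, 10.80, 10.41 and 11.73 on KO arrays 1 to 4. The genotypes did not overlap, and KO array 4 came closest to the WT arrays. Sqle fell by 1.85 in log2 units (limma's adjusted p = 0.0182, with a standard error, SE, of 0.36), which is 3.61-fold. Lss gave WT readings of 8.66, 10.27, 9.37 and 9.44 and KO readings of 6.93, 7.57, 7.10 and 8.48 in log2 units by its brighter probe. Here too the KO values all lay below the WT values, by a narrow margin between KO array 4 and WT array 1. Lss fell by 1.91 (limma's adjusted p = 0.0218, SE 0.41), or 3.77-fold, and its other probe gave a log2 fold change of -1.94 (SE 0.44), with KO array 4 just above WT array 1 on that probe.

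Cyp51, the cytochrome P450 that removes a methyl group from lanosterol, had the widest spread between KO dams. Its log2 signals were 8.03, 9.40, 8.55 and 8.97 on the WT arrays and 5.83, 7.55, 5.99 and 8.66 on the KO arrays, a range of 2.83 among the KO dams. KO array 4 lay above 2 of the WT arrays, while the other KO arrays lay below all of them. The log2 fold change was -1.73 (limma's adjusted p = 0.0852, SE 0.62), and the gene was not called. With replicate number as a blocking term the same change had an adjusted p of 0.0325 from limma. The choice of probe also mattered for Cyp51. Its 3 probes gave log2 fold changes of -1.73, -2.11 and -1.90, and in a fit over all 20838 probes the adjusted p values from limma were 0.0857, 0.0379 and 0.0522.

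Msmo1, Nsdhl and Hsd17b7 together take away a pair of methyl groups from the sterol ring, as an oxidase, a dehydrogenase and a reductase. Msmo1 gave WT readings of 12.11, 13.13, 12.56 and 12.45 and KO readings of 10.71, 11.39, 10.72 and 12.01 in log2 units, without overlap. It fell by 1.35 (limma's adjusted p = 0.0297, SE 0.33), or 2.56-fold. Nsdhl lay at 9.48, 10.83, 10.05 and 10.82 on the WT arrays and at 8.46, 9.22, 8.87 and 10.54 on the KO arrays. KO array 4 stood within the WT range and the other KO arrays below it. Its log2 fold change of -1.02 (SE 0.47) had an adjusted p of 0.155 from limma, or 0.0326 when replicate number was a blocking term, and its 3 probes spanned log2 fold changes of -1.11 to -1.02. Hsd17b7 differed from the other 8 genes in which KO array was the lowest. Its signals were 12.59, 13.24, 12.62 and 13.08 on the WT arrays and 12.26, 11.61, 10.92 and 12.60 on the KO arrays, so that KO array 3, and not KO array 1, had the least signal, and KO array 4 was level with WT array 1. The log2 fold change was -1.03 (limma's adjusted p = 0.0718, SE 0.35), and its other probe gave -1.05.

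The late enzymes Ebp and Sc5d had the smallest differences. Ebp, the sterol isomerase, lay at 14.24, 14.90, 14.55 and 14.79 on the WT arrays and at 13.99, 14.22, 14.10 and 14.52 on the KO arrays. The genotypes overlapped through KO array 4, and the log2 fold change of -0.41 (limma's adjusted p = 0.125, SE 0.17) did not pass. Sc5d, the sterol desaturase, varied little among the WT dams, at 12.28, 12.49, 12.55 and 12.34, and lay at 11.48, 11.58, 11.62 and 12.29 in the KO dams. KO arrays 1 to 3 were grouped well below the WT arrays, and KO array 4 was level with WT array 1. Sc5d fell by 0.67 (limma's adjusted p = 0.0397, SE 0.18), or 1.59-fold, a smaller decrease than the mean difference of Cyp51, Nsdhl, Hsd17b7 or Dhcr7, which were not called.

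Dhcr7, the reductase that produces cholesterol in the last step, had the widest spread among WT dams. Its log2 signals were 11.32, 13.01, 12.11 and 12.84 on the WT arrays and 10.31, 11.04, 10.54 and 12.60 on the KO arrays. KO array 4 lay above 2 WT arrays and the other KO arrays below all of them. The log2 fold change was -1.20 (limma's adjusted p = 0.149, SE 0.55), and the 95% interval ran from -2.44 to 0.05. Dhcr7 passed when replicate number was a blocking term (adjusted p = 0.0410 from limma). Its other probe gave a log2 fold change of -1.32. In all, the 9 genes had 16 probes, each well above background on all 8 arrays, and each had a lower mean in the KO glands. In the fit by probe, 6 of the 16 were called lower, against 8% of all probes tested.

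The same arrays stood at the ends of their genotype for nearly every enzyme, while the order between the ends varied. WT array 1 was the lowest of the WT arrays for 9 of 9 genes, and WT array 2 the highest for 8. Among all genes tested, WT array 1 was the lowest in 28.5%. No share over all genes was computed for WT array 2 as the highest or KO array 1 as the lowest. KO array 1 was the lowest of the KO arrays for 8 of 9 genes, and KO array 4 the highest for 9 of 9, where KO array 4 was the highest in 31.3% of all genes and 14% had both WT array 1 and KO array 4 in these places. Relative to the WT mean of each gene, the median over the 9 genes was -1.85 on KO array 1, -1.19 on KO array 2, -1.85 on KO array 3 and -0.13 on KO array 4. KO arrays 1 to 3 lay below all 4 WT arrays for all 9 genes, against 18.9% of all genes tested. KO array 4 lay below all WT arrays for 3 genes. Zbtb7b was not well above background on KO array 4 either. Among WT dams, the median ran from -0.59 on WT array 1 to 0.53 on WT array 2. With each gene centred within its genotype, the 36 pairs of enzymes correlated over the 8 arrays with a median Pearson's r of 0.896 (lowest 0.489, highest 0.994), a description of genes that share their arrays.

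**Figure D2:**
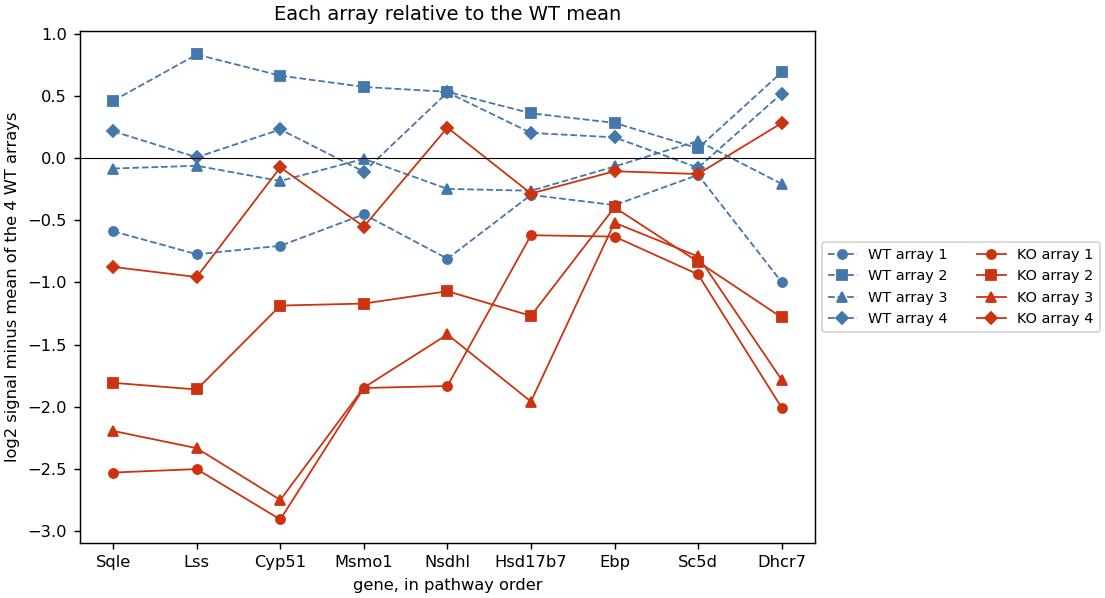
Log2 signal of each array minus the mean of the 4 WT arrays (y axis) for the 9 enzymes in pathway order (x axis), with WT arrays in blue and KO arrays in red, 1 line a dam. KO arrays 1 to 3 lie below all WT arrays at every gene, and KO array 4 lies below all WT arrays only at Sqle, Lss and Msmo1.

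The calls of single genes changed with the arrays in the fit. Without KO array 4, 8 of the 9 genes were called lower, Ebp being the exception, where 8.9% of all genes were called lower. Without WT array 1, 5 were called, with Ebp in addition to the 4 (its adjusted p was 0.0473 from limma), against 11.9% of all genes. In the other direction, 0 of the 9 passed without WT array 2 or without KO array 3, where 2.66% and 1.75% of all genes were called lower, and 5 of the 9 had an unadjusted p under 0.05 in limma in either fit. Sqle alone was called without WT array 3, KO array 1 or KO array 2, against 3.61%, 2.59% and 3.51% of all genes, and Sqle and Lss were called without WT array 4, against 7.09%. The adjusted p of Sqle lay between 0.00908 and 0.0566 with each array left out in turn. Those fits without 1 array also called between 519 and 3076 genes in all, against 2331 with all arrays. The methods' t-test called Sqle alone after adjustment, against 5.63% of all genes, and without the filter on dim probes 3 of the 9 were called, against 5.23%. In each of the 17 alternatives all 9 genes had a lower mean in KO glands.

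When arrays of the same replicate number were set against each other, all 9 genes had the lower signal in the KO gland in 4 of 4 pairs, against 25.6% of all genes tested. The median difference over the genes was -1.02 in pair 1, -1.74 in pair 2, -1.69 in pair 3 and -0.30 in pair 4. Sqle differed by -1.94, -2.27, -2.11 and -1.09 in the 4 pairs, and Sc5d by -0.80, -0.91, -0.93 and -0.05. With replicate number as a blocking term, 7 of the 9 genes were called lower (Sqle, Lss, Cyp51, Msmo1, Nsdhl, Sc5d and Dhcr7), against 10.8% of all genes.

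**Figure D3:**
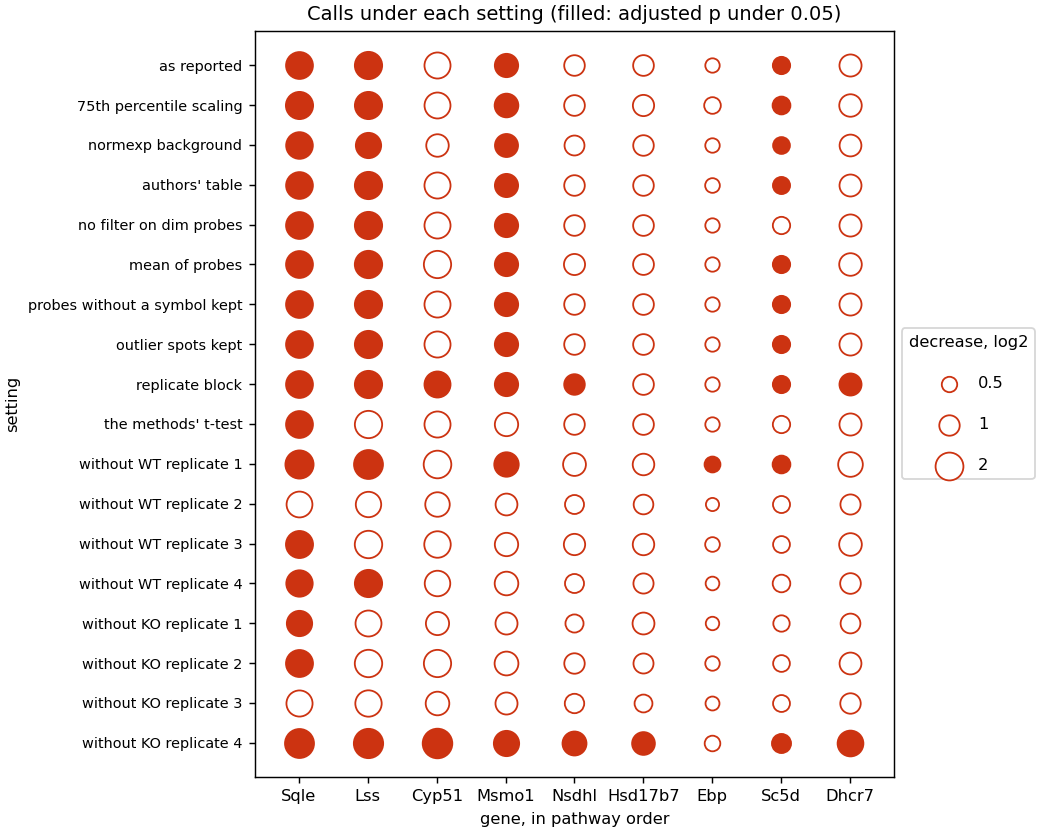
Calls of the 9 enzymes (x axis, pathway order) under the reported setting and each of 17 alternatives (y axis), with larger circles for a larger decrease on the log2 scale and filled circles for an adjusted p under 0.05. Sqle is filled in the most alternatives, 15 of 17, and no circle is filled without WT replicate 2 or without KO replicate 3.

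Other genes of the pathway were taken from lists of known enzymes and regulators. Among 3 further post-squalene genes, all 3 were lower on average and, against 8.96% of all genes, 1 was called lower. It was Erg28, which tethers the methyl-removing enzymes to one another and fell by 0.52 (limma's adjusted p = 0.0456, SE 0.15). This call held in 7 of the 17 alternatives and was lost when replicate number was a blocking term (adjusted p = 0.0833 from limma), with the authors' table (0.0539), without the filter on dim probes (0.0642) and in the methods' t-test (0.0733). The reductases Tm7sf2 and Lbr, which share a step after Cyp51, had log2 fold changes of -1.44 (adjusted p = 0.169 from limma) and -0.43 (adjusted p = 0.0513), and with the block Tm7sf2 was called in place of Erg28 (adjusted p = 0.0117 from limma).

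In the mevalonate pathway, which supplies squalene, all 8 genes described here were lower on average, with a median log2 fold change of -1.003. Of the 8, 1 was called lower, where 8.96% of all genes were. With replicate number as a blocking term, 6 of the 8 (Acat2, Mvk, Pmvk, Mvd, Idi1 and Fdps) were called lower, against 10.8% of all genes. Mvd, the mevalonate diphosphate decarboxylase, fell by 1.74 (limma's adjusted p = 0.00873, SE 0.25). Fdft1, the squalene synthase that makes the substrate of Sqle, differed least among them, at -0.33 on the log2 scale (limma's adjusted p = 0.107, SE 0.13). With the mean of its probes in place of the brightest, its log2 fold change was 0.0043. Idi1 and Fdps, which make and join the isoprene units, had log2 fold changes of -1.82 (limma's adjusted p = 0.0889, SE 0.66) and -1.62 (adjusted p = 0.0995, SE 0.62), with adjusted p values of 0.0288 and 0.0279 from limma under the block. In both, KO array 4 lay within the WT range, as it did for 6 of the 9 enzymes.

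**Figure D4:**
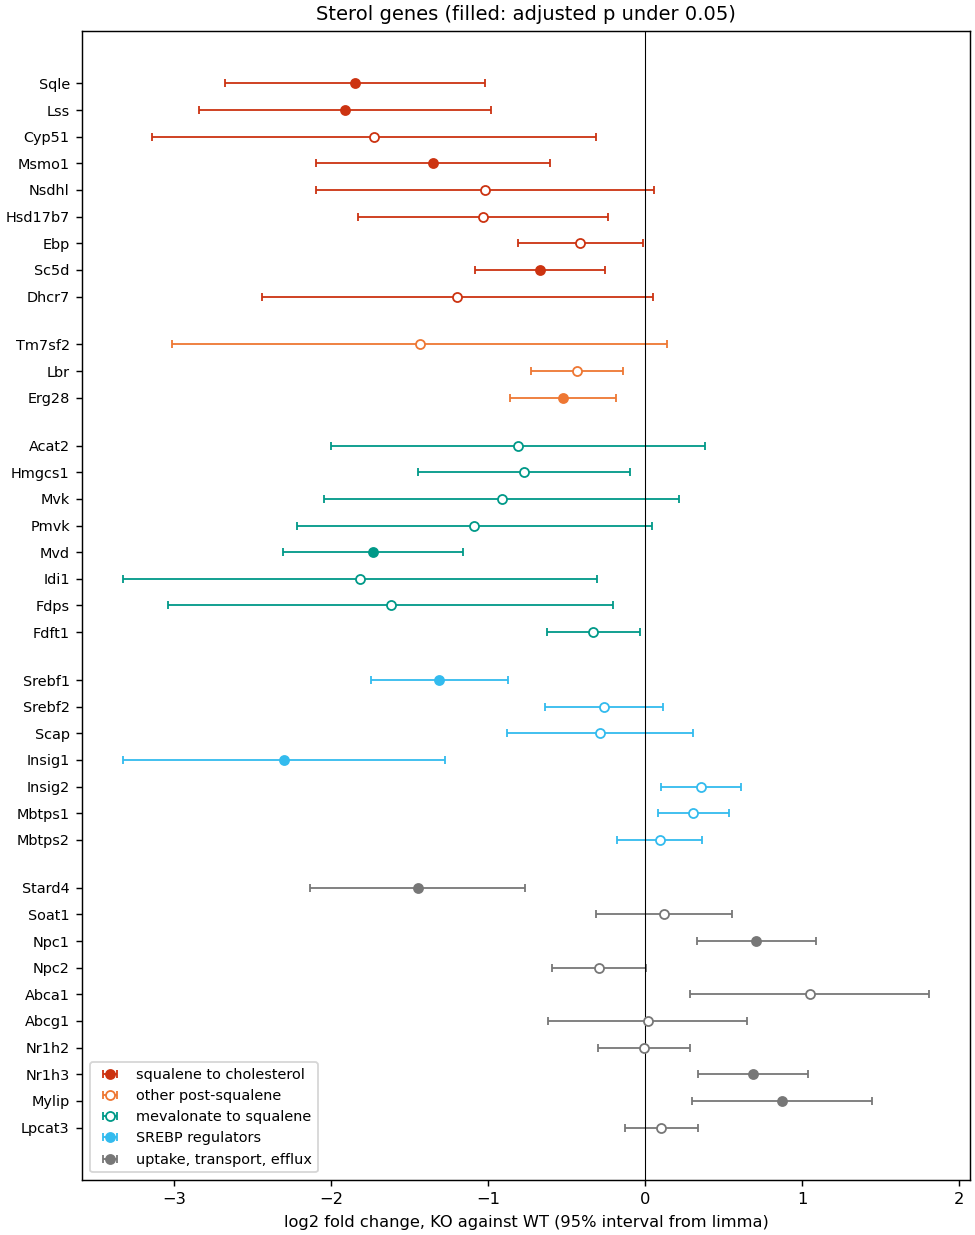
Log2 fold change of KO against WT (x axis) with its 95% interval from limma for the 9 enzymes (red), other post-squalene genes (orange), the mevalonate pathway (green), SREBP control (light blue) and sterol handling (grey), with filled points for an adjusted p under 0.05. All points of the first 3 groups lie left of 0, and the other groups have points on both sides.

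Among 7 genes that control SREBP, 2 were called, both lower, where 8.96% of all genes were called lower. Srebf1, which encodes SREBP-1, fell by 1.31 (limma's adjusted p = 0.00880, SE 0.19), and Insig1, which retains SREBP and is itself induced by it, fell by 2.30 (adjusted p = 0.0180, SE 0.45). Srebf2, which encodes the factor most tied to cholesterol synthesis, had a log2 fold change of -0.26 (limma's adjusted p = 0.280, SE 0.16), and Scap had -0.29 (adjusted p = 0.456, SE 0.26). With the mean of its probes in place of the brightest, Srebf2 had a log2 fold change of -0.52 (limma's adjusted p = 0.0747). Srebf1 did not share the high value of KO array 4 and lay on KO arrays 1 to 4 at 14.47, 14.66, 14.32 and 14.47, against 15.39 to 16.31 on the WT arrays.

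Genes of sterol uptake, transport and efflux moved in both directions, with 1 of 10 called lower and 3 called higher. Among all genes tested, 8.96% were called lower and 7.53% higher, so the 1 called lower is near that share. Stard4, a cytosolic sterol carrier, fell by 1.45 (limma's adjusted p = 0.0204, SE 0.30). Of those called higher, Nr1h3 encodes the sterol sensor LXR-alpha and rose by 0.68 (limma's adjusted p = 0.0251, SE 0.15). Npc1, which exports cholesterol from lysosomes, rose by 0.71 (adjusted p = 0.0277, SE 0.17), and Mylip, a ubiquitin ligase, rose by 0.87 (adjusted p = 0.0483, SE 0.25). Abca1, the cholesterol exporter, ranged from 9.63 to 9.84 among WT glands and read 11.56, 10.78, 10.90 and 9.71 on KO arrays 1 to 4. KO array 1 was the highest and KO array 4 the lowest of the KO arrays, the opposite ends from most of the enzymes, and its log2 fold change was 1.05 (limma's adjusted p = 0.0621, SE 0.33, or adjusted p = 0.0459 under the block). Of the 17 alternatives, the calls held in 12 for Stard4, 12 for Nr1h3, 10 for Npc1 and 8 for Mylip.

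Over the 8 arrays, the mean profile of the 9 enzymes was matched most closely outside these lists by Cyb5b, Cog6, D630003M21Rik, Ins2 and Elovl1, with Pearson's r of 0.996, 0.995, 0.994, 0.994 and 0.992. These are the highest of 14137 genes over 8 arrays that share their slides with the genotypes, and are given as a description. Elovl1, a fatty acid elongase, had a log2 fold change of -1.09 (limma's adjusted p = 0.0472, SE 0.31), and Cyb5b, an outer mitochondrial cytochrome, had -1.14 (adjusted p = 0.0503, SE 0.34).

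Cell markers were read beside the enzymes. Among all genes tested, 8.96% were called lower and 7.53% higher. In lists of 5 to 10 genes, a count of 1 or 2 is too small to be read as a result about the list. For single genes, every KO array lay above every WT array in 11.1%, and no such share was computed for the mean of a list. The mean log2 signal of 10 luminal epithelial genes was 12.88 to 13.37 on the WT arrays and 13.59 to 13.77 on the KO arrays, with 4 genes called higher and 0 lower. Of the 4, Krt18 was at 16.23 ± 0.29 (SD, n = 4) in WT and 16.90 ± 0.21 (SD, n = 4) in KO glands. Krt8 was at 15.45 ± 0.33 (SD, n = 4) in WT and 15.91 ± 0.17 (SD, n = 4) in KO glands and was not called (adjusted p = 0.0988 from limma). Elf5 (log2 fold change -0.35, limma's adjusted p = 0.107), Prlr (-0.20, adjusted p = 0.473) and Ehf (-0.03, adjusted p = 0.956) had a lower mean in KO glands. The remaining luminal genes had a higher one. Over 10 adipocyte genes the mean was 12.71 to 13.27 in WT and 13.29 to 13.50 in KO glands, with 2 called higher. Adipoq, a defining gene of fat cells, had an adjusted p of 0.158 from limma. Lep (log2 fold change -0.73, limma's adjusted p = 0.370) and Pparg (-0.05, adjusted p = 0.754) had a lower mean in KO glands. The remaining adipocyte genes had a higher one. The mean of the 6 neutrophil genes tested, of 8 in the list, was 7.61 to 8.29 in WT and 9.74 to 10.81 in KO glands, with 3 called higher. Of these 3, Ngp and Camp were well above background on 0 of 4 WT arrays and passed the filter through the KO arrays alone, and Ltf, also a milk protein, was well above background on all arrays. Over the 4 neutrophil genes well above background on all 8 arrays, the mean was 10.09 to 11.26 in WT and 11.47 to 12.50 in KO glands, with 1 called higher. The mean of 6 fibroblast genes was 13.86 to 14.11 in WT and 14.14 to 14.74 in KO glands, with 1 called higher. The remaining lists overlapped between the genotypes, with 1 of 8 basal, 2 of 7 T cell and 0 of 5 B cell genes called lower, 1 B cell gene called higher, and 0 of 7 macrophage and 0 of 6 endothelial genes called. The 2 T cell genes called lower were Cd3e (log2 fold change -0.60, limma's adjusted p = 0.0369) and Cd4 (-0.43, adjusted p = 0.0403). All 7 T cell genes had a lower mean in KO glands. Any part of these cell types in the differences of the enzymes was not tested.

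Promoters of the enzymes were read from RefSeq (build GRCm38.p6), since the genes moved together from dam to dam. The table holds windows of 250 bases before to 50 bases after a transcript start for 8 of the 9 genes, with 3 windows for Dhcr7. The letters CCAAT, the core of the NF-Y motif, occurred on either strand in a window of 8 of 8 genes, against 41.1% of the 27025 genes in the table, and GGGCGG, the core of the Sp1 motif, in 8 of 8 against 38.2%. For Dhcr7, CCAAT stood only in the window that begins inside the annotated gene. The shares cover all genes in the table, whether or not they were tested on the arrays. The classical sterol regulatory element TCACCCCAC occurred in 0 of 8, against 0.614% of all genes, and its looser form TCACNCNAC in 1 of 8, Nsdhl, against 3.15%. The E-box CACGTG occurred in 3 of 8, Hsd17b7, Sc5d and Dhcr7, against 8.09%. A match is a description of letters and not of binding. Shown are the stretches before the annotated start of Lss, Msmo1 and Sc5d, the 3 called genes in the table, of Nsdhl for its sterol element and of Ebp as the gene with the smallest difference, 5′ to 3′ on the strand of the gene, with CCAAT (or ATTGG, its reverse complement) and the loose sterol element in capitals. They lie at chr10:76531355-76531564 on the plus strand (Lss), chr8:64733579-64733828 on the minus strand (Msmo1), chr9:42264301-42264550 on the minus strand (Sc5d), chrX:72918271-72918520 on the plus strand (Nsdhl) and chrX:8193513-8193762 on the minus strand (Ebp).
Lss: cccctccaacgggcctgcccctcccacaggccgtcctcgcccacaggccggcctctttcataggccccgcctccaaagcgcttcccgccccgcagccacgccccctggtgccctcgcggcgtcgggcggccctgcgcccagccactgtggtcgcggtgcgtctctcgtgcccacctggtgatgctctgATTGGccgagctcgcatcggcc
Msmo1: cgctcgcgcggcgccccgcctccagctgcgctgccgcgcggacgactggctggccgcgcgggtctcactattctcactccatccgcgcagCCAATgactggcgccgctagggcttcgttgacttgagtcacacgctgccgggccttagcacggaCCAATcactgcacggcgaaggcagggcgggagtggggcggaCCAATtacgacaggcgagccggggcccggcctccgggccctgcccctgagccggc
Sc5d: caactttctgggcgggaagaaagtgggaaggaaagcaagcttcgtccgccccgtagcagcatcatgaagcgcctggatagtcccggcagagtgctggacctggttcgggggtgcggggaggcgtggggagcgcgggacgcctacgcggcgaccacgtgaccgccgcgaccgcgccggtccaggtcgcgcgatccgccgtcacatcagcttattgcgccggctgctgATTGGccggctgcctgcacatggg
Nsdhl: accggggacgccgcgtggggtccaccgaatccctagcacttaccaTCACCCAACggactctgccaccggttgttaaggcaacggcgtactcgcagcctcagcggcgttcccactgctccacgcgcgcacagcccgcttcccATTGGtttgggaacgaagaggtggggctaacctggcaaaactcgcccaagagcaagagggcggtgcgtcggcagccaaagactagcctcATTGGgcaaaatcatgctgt
Ebp: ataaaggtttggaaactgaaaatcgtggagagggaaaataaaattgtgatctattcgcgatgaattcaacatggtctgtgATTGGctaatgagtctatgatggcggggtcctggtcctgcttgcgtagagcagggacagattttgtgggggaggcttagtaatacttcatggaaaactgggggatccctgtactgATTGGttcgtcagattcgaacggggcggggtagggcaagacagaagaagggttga

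Msmo1 holds CCAAT 3 times in this stretch, the Ebp and Nsdhl stretches hold ATTGG 2 times each, and those of Lss and Sc5d hold it 1 time. CCAAT letters thus stood before the start of Ebp, with the smallest difference, as well as of the called genes. No window for Sqle was in the table.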

How the data were processed

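RNA from 8 mammary glands was hybridised to 1-colour Agilent mouse gene expression arrays, 1 array a dam. Per the file headers and labels, the deposited scanner files hold intensity values from Agilent Feature Extraction 10.7, with gProcessedSignal already background-subtracted by the authors' scanner software. The authors' table of log2 values, also deposited, is their quantile-normalized version of the same arrays and correlated with the values used here at r of at least 0.999996. Its column medians were all 6.33, and it was used as an alternative.

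From the intensities, control spots and spots flagged as outliers (64 to 100 an array) were left out, log2(gProcessedSignal) was quantile-normalized over the 8 arrays, and spots of a probe were averaged. Probes were named by matching their accessions to RefSeq: 27479 of 41174 probes had a symbol. A gene was represented by its probe with the highest mean signal, and 14137 of 18749 genes, those well above background on all 4 arrays of a genotype, were tested. A probe with several spots counted as above background when at least 0.5 of its kept spots were, a rule chosen after seeing the data on which no call of the 9 enzymes depended. WT and KO were compared with limma 3.58.1 (lmFit and eBayes, R 4.3.3), with Benjamini-Hochberg adjustment over all genes tested and a threshold of 0.05. The fits were tested on simulated data. The scanner files hold median and not mean foreground, so the normexp alternative (offset 50) used the median.

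The 9 genes, the gene lists and the tests were chosen with earlier results of these data known, as were the comparisons of single arrays and the fit by probe. Beside the 9 enzymes and Zbtb7b, the rule for named genes took the called members of the other lists, Srebf1, Srebf2 and Scap, and the 5 genes outside the lists with the profile most like the enzymes. Among the markers the rule took Csn2, Wap, Lalba, Krt8, Krt18 and Adipoq. Tm7sf2, Lbr, Fdft1, Idi1, Fdps and Abca1 were added after their values were seen. So were the markers Elf5, Prlr, Ehf, Lep, Pparg, Ngp, Camp, Ltf, Cd3e and Cd4. Some genes of the other lists are not reported here and were left out of the lists' counts and medians, but stayed in the fit over all genes. Same-numbered WT and KO arrays deviated together from their group means (r of 0.22, 0.16, 0.30 and 0.28 over genes). The number was therefore taken as a pairing in an alternative fit, while the calls reported come from the fit without it. The labels do not say what the number marks, and the pairing was read from the same arrays. The blocked values are given beside the calls of named genes that they change. Each array is a separate dam, and the number of arrays limits the precision.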

Additional observations from a re-analysis of the deposited data

Results flagged for a closer look

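Mylip, a ubiquitin ligase, had a KO array that stood apart from the rest. KO array 4 had a log2 signal of 11.02, while the other KO arrays lay at 11.96, 11.97 and 12.03, a gap of 0.933 of the range of the 4 arrays. It was the only such case in 38 groups of 4 arrays (19 genes in each genotype), where chance gives about 1 in 20. A count of 1 in 38 is not above that rate. KO array 4 was also the highest KO array for each of the 9 enzymes. The cause was not tested.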

How the results depend on the processing

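The direction of the 9 enzymes did not depend on the processing: each had a lower KO mean under all 17 alternatives, and of 153 values (9 genes by 17 alternatives) 122 stayed on the same side of the threshold, 23 lost a call and 8 gained one. The number of calls did depend on the test and on single arrays. The methods' t-test after Benjamini-Hochberg adjustment called 1389 genes in all, 1 of the 9 enzymes (Sqle) and 4 of the other sterol genes, where limma called 2331, 4 and 8. In the fit with a replicate block, which pairs the arrays, 2762 genes, 7 enzymes and 14 other sterol genes were called. Each of these fits tested 14137 genes. Counts of all genes and of other sterol genes take calls in both directions, and those of the enzymes lower calls alone. The other sterol genes were the 3, 8, 7 and 10 genes of the lists above. With the block, 4 of the 10 were called higher. With 1 array left out in turn, the counts ran from 519 to 3076 for all genes, from 0 to 8 for the enzymes and from 2 to 13 for the other sterol genes. Without the filter on dim probes Sc5d had an adjusted p of 0.0586 from limma and 3 enzymes were called. With scaling to the 75th percentile, normexp, the authors' table, the mean of probes, unnamed probes kept or outlier spots kept, Sqle, Lss, Msmo1 and Sc5d were called each time. In the fit by probe, added after seeing the data, 5 enzymes had a called probe, with Cyp51 joining these 4. Of the other genes, Fdft1 turned from -0.33 to 0.0043 on the log2 scale with the mean of its probes, and Srebf2 moved from -0.26 to -0.52. The cause of these shifts was not tested. All 9 enzymes were well above background on every array.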
